A study of Schizosaccharomyces pombe with 12 samples.

Results

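The genes described here encode factors that build the ribosome in fission yeast (Schizosaccharomyces pombe). They were chosen by name: 62 of the 7013 gene rows in the deposited count files carry a nop, utp, rrp, noc, nog, nsa, rix, ebp, dbp or bms name followed by a number, once rrp1 and rrp2, which are DNA translocases in this species, are left out. Ribosomal RNA is copied as a long precursor in the nucleolus, where it is folded, chemically modified and cut while ribosomal proteins join it. The small subunit is assembled in a large particle around the U3 small nucleolar RNA (the small subunit processome), the large subunit passes through a series of particles driven by helicases and GTPases, and the exosome trims RNA ends. Transcripts of these genes are known to follow growth rate and to fall in the core stress response of yeasts.

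RNA was profiled in 4 groups with 3 libraries each: cells with wild-type histone H3 (WT), cells with H3 in which glycine 34 is replaced by arginine (G34R) or by valine (G34V), and cells with wild-type H3 whose label, Set2D, was taken to mean that set2 is deleted (set2Δ); set2 is the gene of the H3 lysine 36 methyltransferase. All cultures grew in YES, a rich medium, at 25 °C. The labels do not give further alleles of the strains, do not say whether each group is 1 clone, and do not say whether its libraries came from separate cultures, so p-values speak of library spread only, which may be technical. The series addresses how the G34R and G34V forms differ, with WT and set2Δ cells alongside.

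Libraries held 65797517 to 228726069 counts in genes, and the 62 members took 1.01 to 1.13% of them. All 62 passed the filter on low counts. Levels are given as CPM, the gene's counts relative to the total of its library after scaling between libraries, with the SD over n = 3 libraries. Each log2 fold change is followed by its standard error (SE). A gene was called when its adjusted p in edgeR's quasi-likelihood test was under 0.05. As a check of the labels, set2 stood at 3.69 to 4.38 CPM in the set2Δ libraries and at 122 to 133 CPM in WT. In set2Δ replicate 3 every deposited value was an even number, and the member counts with its values halved are within 1.5 times of those given. In bulk RNA, fewer cells with a transcript and less transcript per cell cannot be told apart.

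Read per coding length, WT levels of the members spanned 13.9 to 810.2 CPM per coding kilobase, with a median of 76.2, beside 65.4 for all tested protein-coding genes. The highest were the core proteins of the small nucleolar ribonucleoproteins (snoRNPs), which carry guide RNAs for rRNA modification: nop10 (810.2), nop56 (545.9) and nop58 (474). Their role medians ran from 56.5 for the 8 exosome genes through 73.1 for 28 small subunit factors and 91.2 for 20 large subunit factors to 545.9 for the 3 snoRNP genes, all in CPM per coding kilobase. The lowest was utp13, which encodes a WD-repeat protein of the small subunit processome. Coding lengths leave out untranslated regions, so the value of nop10, whose reading frame has only 195 bases, is raised relative to longer genes.

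Across the 4 groups the members moved by small amounts. In G34R cells most members lay below WT, in G34V cells most lay above it, and in set2Δ cells equal numbers lay on either side. The median log2 fold change of the 62 members was −0.07 in G34R, 0.08 in G34V and 0.00 in set2Δ against WT, where the median over all 6602 tested genes was 0.00, −0.01 and −0.01. Over the 5068 tested protein-coding genes of the same fit it was −0.03, −0.02 and −0.04. In G34R 3033 of these 5068 genes lay below WT, beside 45 of the 62 members, so that direction was shared by most protein-coding genes. Beside protein-coding genes the members lay slightly higher in set2Δ. No member changed by as much as 1.5-fold in any of the 6 comparisons. At the higher limit of 2-fold, 58, 70 and 452 of the 6602 tested genes were called in G34R, G34V and set2Δ. Changes of that size were thus rare among all genes in G34R and G34V too, and their absence from 62 members does not set the members apart there. The member median was −0.04 in G34R without G34R replicate 1 and 0.03 in set2Δ without WT replicate 1. Replicate spread was small enough for such changes to be tested: the median coefficient of variation of a member within a group was 1.97 to 3.22%.

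**Figure D1:**
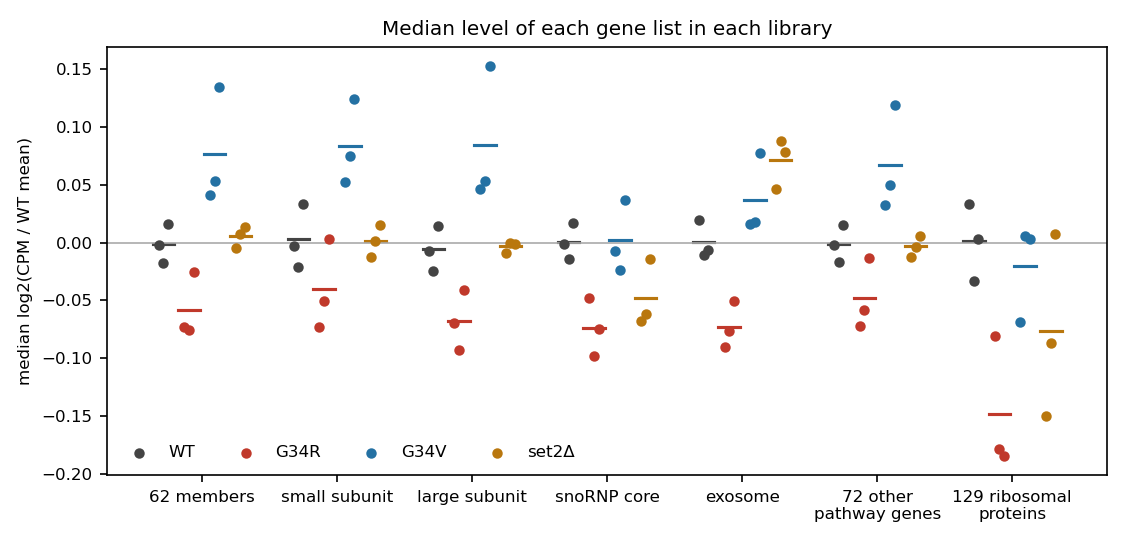
Median over each gene list of log2(CPM divided by the WT mean of that gene), 1 point per library, with bars at the mean of the 3 libraries of a group. For the 62 members the 3 G34R libraries lie at −0.073, −0.076 and −0.026 and the 3 G34V libraries at 0.041, 0.053 and 0.135, with WT and set2Δ between them.

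The per-library medians showed the same order. They stood at −0.002, −0.018 and 0.016 in WT, at −0.073, −0.076 and −0.026 in G34R, at 0.041, 0.053 and 0.135 in G34V and at −0.005, 0.007 and 0.014 in set2Δ on the log2 scale relative to the WT mean. All G34R libraries were below all others, and all G34V libraries above all others. In each of the 4 groups the library numbered 3 had the highest member median and the highest summed level, and also the lowest summed level of the 19 stress genes given further on. The numbers follow only the order in which libraries are listed, nothing in the labels links libraries across groups, and the part of this ordering in the member values was not tested. G34V replicate 3, the highest of all, had the fewest counts. Summed over the members, the level was 10384 to 10682 CPM in WT, 10121 to 10402 in G34R, 10868 to 11444 in G34V and 10281 to 10618 in set2Δ. On this summed scale, where abundant members weigh most, G34R replicate 3 overlapped WT, and the G34V libraries stayed above all others.

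The clearest contrast was that between the 2 substitutions of the same residue. The fitted level of each of the 62 members was lower in G34R than in G34V, with log2 differences from −0.0029 (noc3, which acts with Noc2 in large subunit export in budding yeast) to −0.47 (rrp41), where 3298 of 6602 tested genes were lower. Of the members 45 were called lower and 0 higher in edgeR's quasi-likelihood test, beside 25.3% of all tested genes called lower and 25.2% higher (27.3% and 24.3% of protein-coding genes). The median difference was −0.12 on the log2 scale, or 7.86% lower in G34R. Libraries of G34R and G34V did not overlap in 53 members, all with G34R below, beside 30.5% of all tested genes below and 30.2% above. The 17 members that were not called included noc3, dbp10 and utp5, whose libraries overlapped between the mutants, and nop4 and utp13, whose replicates spread widely. Also among them was utp20, whose G34R libraries lay below those of G34V by a small amount (−0.05 on the log2 scale). All 62 remained negative with RLE or upper quartile scaling, and 61 did when only protein-coding genes were fitted or without G34V replicate 3, where 33 were called lower. Without G34R replicate 1, 60 were negative and 36 were called lower.

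**Figure D2:**
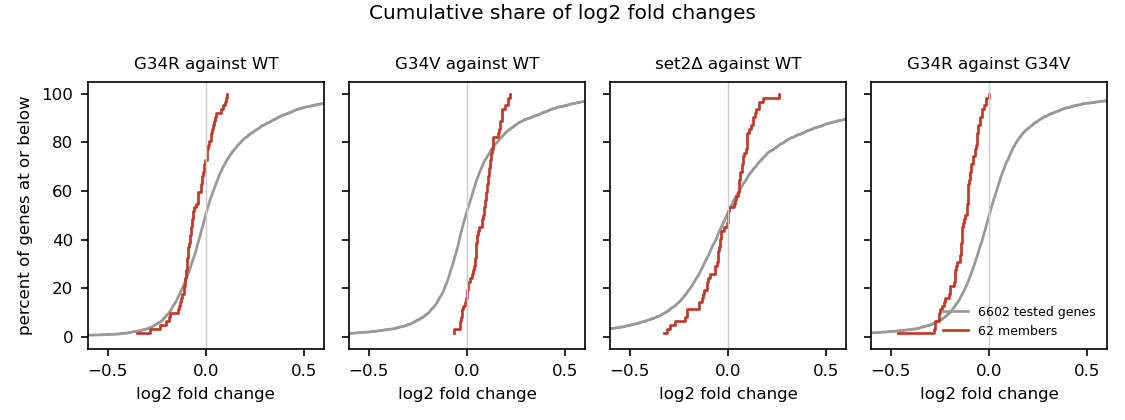
Cumulative percent of genes (vertical axis) at or below each log2 fold change (horizontal axis) for the 62 members and all 6602 tested genes in 4 comparisons, the horizontal axis being shown from −0.6 to 0.6. The curve of the members lies left of that of all genes around 0 in G34R against WT, right of it in G34V against WT, and wholly below 0 in G34R against G34V.

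Against WT, G34R cells had lower transcripts of 26 members and higher transcripts of 5, in edgeR's quasi-likelihood test, while 26.6% of all tested genes were called lower and 26.8% higher. Among tested protein-coding genes alone, of the same fit, the shares were 32.7% and 18.7%, beside 41.9% and 8.06% of the members. All 3 G34R libraries lay below WT in 27 members and above it in 6, where 30.9% and 31.5% of all tested genes did so. When scaling and testing used protein-coding genes only, 12 members were called lower and 8 higher, and the member median was −0.04. Of all 5068 genes in that fit 24.4% were lower and 26.0% higher, so the members' share of lower calls was then not above the background. The count of lower members was 17 without WT replicate 3, 15 without G34R replicate 1 and 16 without G34R replicate 2. That of higher members was 3 without WT replicate 2, 3 without G34R replicate 2 and 2 without G34R replicate 3.

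In G34V cells 28 members rose and 0 fell against WT, beside 25.1% and 25% of all tested genes and 19% and 29.8% of protein-coding genes. The 10 members with a negative fitted value ran from −0.07 (rrp4) to −0.01, and none was called by edgeR, DESeq2 or limma, rrp4 alone having an unadjusted p under 0.05 in edgeR. All 3 G34V libraries lay above WT in 28 members and below it in 1, where 28.7% and 29.2% of all tested genes did so. Without G34V replicate 3 the counts were 20 higher and 1 lower, and 1 was also called lower without set2Δ replicate 1 or 2 (all libraries share 1 estimate of the spread). In set2Δ cells 19 members rose and 16 fell against WT, beside 34.5% and 35.6% of all tested genes and 27.5% and 41.8% of protein-coding genes. All 3 set2Δ libraries lay above WT in 19 members and below it in 18, where 35.5% and 36.4% of all tested genes did so. The members' shares, 30.6% and 25.8%, were near or below the background. With upper quartile scaling 27 rose and 11 fell in set2Δ, beside 40.5% and 28.4% of all genes in that fit. With protein-coding genes alone 26 rose and 12 fell, beside 33.1% and 34.9%.

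**Figure D3:**
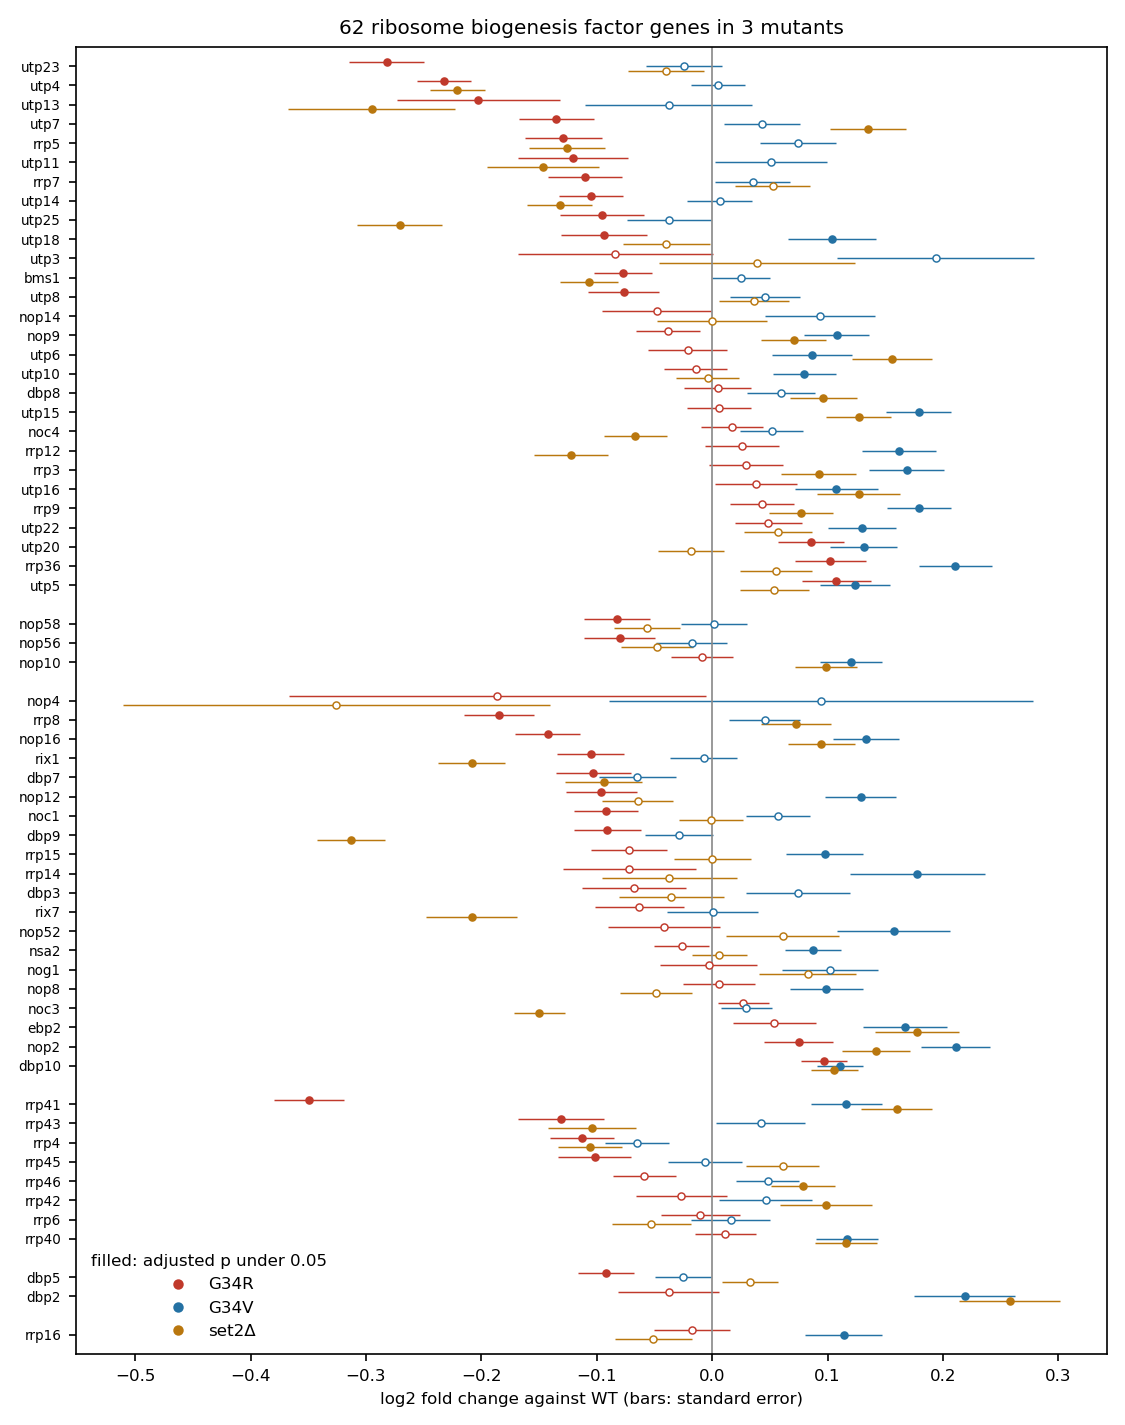
Log2 fold change against WT of each of the 62 members in G34R, G34V and set2Δ, with bars of 1 standard error and filled points where the adjusted p was under 0.05. From top to bottom the blocks hold small subunit factors, snoRNP core proteins, large subunit factors, exosome subunits, dbp5 with dbp2, and rrp16, and within a block genes run from the lowest to the highest value in G34R. Filled G34V points all lie right of 0.

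Counts by role are to be read against the shares over all tested genes given above. Among the 28 small subunit factors, 12 fell and 3 rose in G34R, 13 rose and 0 fell in G34V, and 9 fell and 8 rose in set2Δ. Their medians were −0.04, 0.08 and 0.02 on the log2 scale. As shares, 42.9% fell in G34R and 46.4% rose in G34V in the main fit. Both were above the shares of all tested genes and above the 32.7% and 19% of protein-coding genes. The 32.1% that fell and 28.6% that rose in set2Δ were below the shares of all tested genes. With scaling and testing on protein-coding genes only, the lower calls in G34R over all 62 members were not above the background, and roles were not counted in that fit. Between the 2 substitutions 21 were lower in G34R and 0 higher.

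The gene utp4 encodes a WD-repeat protein of the subcomplex that binds the nascent precursor first in budding yeast. It stood at 194, 193 and 195 CPM in WT, at 163, 165 and 168 in G34R, at 194, 192 and 198 in G34V and at 168, 161 and 169.9 in set2Δ. The G34R and set2Δ libraries were all below those of WT and G34V, which overlapped. The transcript fell by 14.9% in G34R (−0.23, SE 0.024, adjusted p = 1.2e-06) and by 14.2% in set2Δ (−0.22, SE 0.024, adjusted p = 5.9e-07) against WT in edgeR's quasi-likelihood test, and was at 0.00 in G34V (adjusted p = 0.88).

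The gene utp23 encodes a processome protein with a PIN domain. Its levels were 83.6, 86.4 and 89.4 CPM in WT, at 71.3, 71.4 and 70.7 in G34R, at 83.4, 81.9 and 90.3 in G34V and at 85.5, 84.4 and 82.7 in set2Δ. Only the G34R libraries stood apart from WT, below the other 9. The log2 fold change was −0.28, SE 0.033 in G34R (adjusted p = 4.4e-06), −0.02 in G34V (adjusted p = 0.55) and −0.04 in set2Δ (adjusted p = 0.29) in edgeR's quasi-likelihood test. The direct difference between G34R and G34V was −0.26, SE 0.033 (adjusted p = 1.8e-05 by edgeR).

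Other small subunit members rose in G34V. The gene rrp36 (early cleavages of the precursor in budding yeast) was at 49.4, 49.9 and 49.1 CPM in WT, 51.2, 53.6 and 54.3 in G34R and 56.7, 55.7 and 59.5 in G34V. The 3 groups did not overlap, with G34V highest and WT lowest. It rose in G34V (0.21, SE 0.032, adjusted p = 6.2e-05) and by less in G34R (0.10, SE 0.031, adjusted p = 0.011) in edgeR's test, and the call in G34R was lost without G34R replicate 3 (adjusted p = 0.059). The gene rrp9, which encodes a protein of the U3 snoRNP, had 119.7, 119 and 124 CPM in WT and 132, 136 and 142 in G34V, without overlap (0.18, SE 0.028, adjusted p = 8.8e-05 by edgeR's test). The gene utp15, of the same subcomplex as utp4, had 99.5, 97.0 and 95.4 CPM in WT and 106, 110.3 and 114 in G34V, again without overlap (0.18, SE 0.028, adjusted p = 0.00010 by edgeR). In G34R both were near WT, at 0.04 and 0.01 on the log2 scale, and neither was called.

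Members of the processome did not all follow the common direction. Besides rrp36, utp5 (0.11, SE 0.030) and utp20 (0.09, SE 0.029) were called higher in G34R as well as in G34V (0.12 and 0.13). The call of utp20 in G34R was lost without WT replicate 1 or 2 and without G34R replicate 2 or 3 (adjusted p = 0.053 to 0.079 by edgeR's test). The gene utp25, which encodes a protein related to helicases, had 139, 144 and 154 CPM in WT and 117, 122 and 123 in set2Δ, without overlap, and fell by 17.1% there (−0.27, SE 0.037, adjusted p = 9.6e-06 by edgeR), with −0.10 in G34R and −0.04 in G34V. The gene utp7 fell in G34R (−0.13, SE 0.033) and rose in set2Δ (0.14, SE 0.033). The gene rrp12, an export factor in budding yeast, rose in G34V (0.16, SE 0.032) and fell in set2Δ (−0.12, SE 0.032). The gene utp18 was called lower in G34R (−0.09, SE 0.037, adjusted p = 0.046) and higher in G34V (0.10, SE 0.038, adjusted p = 0.033) in edgeR's test, but both calls were lost when single libraries were left out (adjusted p up to 0.21 and 0.13, the first without WT replicate 1 or 3, any G34R library, G34V replicate 2 or set2Δ replicate 2, the second without WT replicate 1 or 2 or G34V replicate 2 or 3). The lowest member per coding length, utp13, was at 35.3, 33.1 and 28.7 CPM in WT, at 27.7, 28.0 and 28.5 in G34R, at 28.7, 33.4 and 32.7 in G34V and at 27.5, 25.3 and 26.3 in set2Δ. Its WT and G34V libraries overlapped, and it fell in set2Δ (−0.29, SE 0.072, adjusted p = 0.0030 by edgeR's test). The call in G34R (−0.20, adjusted p = 0.030 by edgeR) was lost without WT replicate 1 or 2 or any G34R library (adjusted p = 0.057 to 0.12).

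**Figure D4:**
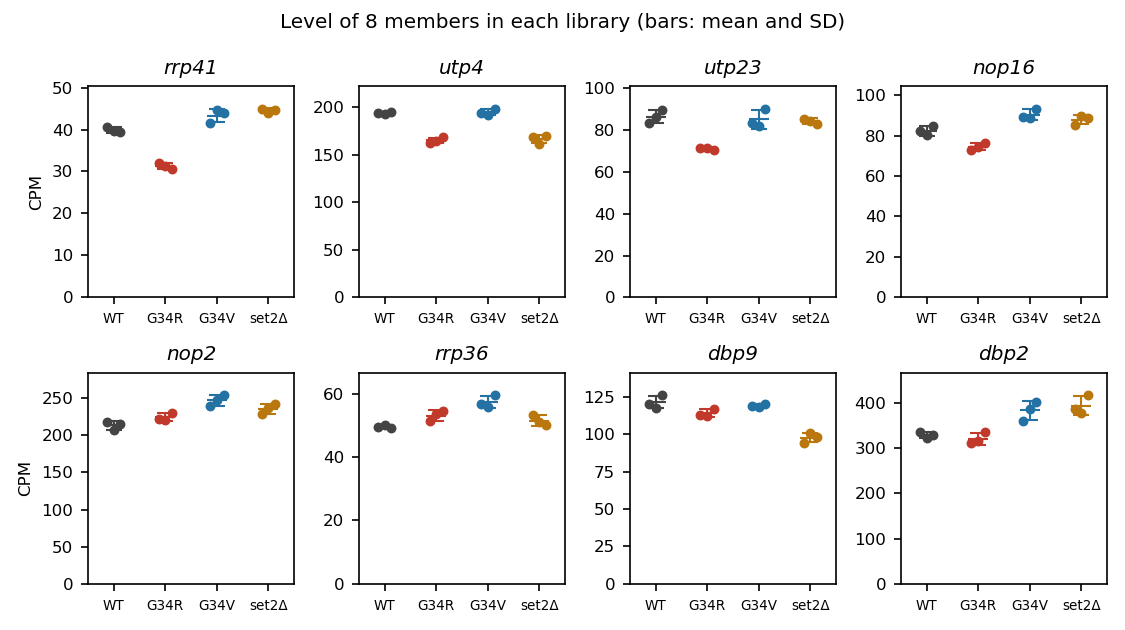
Level of 8 members in CPM (vertical axes start at 0) in each library, with the mean and SD of each group. The G34R libraries lie lowest for rrp41, utp23 and nop16, G34R and set2Δ lie together below WT for utp4, and set2Δ lies lowest for dbp9.

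Of the 20 large subunit factors, 7 fell and 2 rose in G34R, 10 rose and 0 fell in G34V, and 5 rose and 5 fell in set2Δ. The medians were −0.07, 0.10 and −0.02. The 35% that fell in G34R were near the 32.7% of protein-coding genes, the 50% that rose in G34V were above the background, and the 25% in either direction in set2Δ were below it. All 20 had a lower fitted level in G34R than in G34V, and 14 were called.

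The gene nop16 was called in all 3 mutants and in opposite directions. It was at 82.2, 80.0 and 84.6 CPM in WT, at 73.0, 74.4 and 76.2 in G34R, at 89.2, 88.7 and 93.3 in G34V and at 85.3, 89.6 and 88.7 in set2Δ. G34R lay below WT, and G34V and set2Δ above it, without overlap with WT. The changes were −0.14, SE 0.029 (adjusted p = 0.00065), 0.13, SE 0.029 (adjusted p = 0.0013) and 0.09, SE 0.029 (adjusted p = 0.0081) in edgeR's quasi-likelihood test, and the difference of G34R from G34V was −0.28, SE 0.029 (adjusted p = 2.3e-06).

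The gene rrp8, which encodes an rRNA methyltransferase, had 45.1, 42.5 and 43.3 CPM in WT, at 38.5, 37.7 and 39.0 in G34R, at 44.0, 44.5 and 46.8 in G34V and at 46.4, 45.0 and 46.2 in set2Δ. The G34R libraries were below all others. It fell in G34R (−0.18, SE 0.030, adjusted p = 0.00012 by edgeR's test) and was lower there than in G34V (−0.23, SE 0.031, adjusted p = 2.6e-05). Its call in set2Δ (0.07, adjusted p = 0.044 by edgeR) was lost without WT replicate 2 or 3, G34R replicate 2, G34V replicate 2 or set2Δ replicate 1 or 3 (adjusted p = 0.051 to 0.17). The RNA-binding protein gene nop12 fell in G34R (−0.10, SE 0.031, adjusted p = 0.016, or 0.075 without G34R replicate 1) and rose in G34V (0.13, SE 0.031, adjusted p = 0.0029) by edgeR.

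The gene nop2, which encodes a methyltransferase of the large subunit rRNA, was at 217, 207 and 215 CPM in WT, at 222, 221 and 230.1 in G34R, at 239.7, 247 and 254 in G34V and at 228, 236 and 241 in set2Δ. All 9 mutant libraries were above WT, G34V and G34R did not overlap, and G34V and set2Δ shared a range. It rose by 15.7% in G34V (0.21, SE 0.030, adjusted p = 3.4e-05) and by 10.3% in set2Δ (0.14, SE 0.030, adjusted p = 0.00053) by edgeR. The call in G34R (0.07, adjusted p = 0.044 by edgeR) was lost without WT replicate 2 or 3, any G34R library, G34V replicate 2 or set2Δ replicate 2 (adjusted p = 0.053 to 0.19). The DEAD-box helicase gene dbp10 had 132 to 135 CPM in WT, 141 to 144 in G34R, 142 to 146 in G34V and 143, 143 and 143 in set2Δ. Every mutant library lay above WT. It rose in each mutant (0.10, SE 0.020; 0.11, SE 0.020; 0.11, SE 0.020), and the difference between G34R and G34V was −0.01, SE 0.020 (adjusted p = 0.60 by edgeR's test). The gene ebp2, which acts in maturation of the large subunit rRNA, rose in set2Δ (0.18, SE 0.036, adjusted p = 0.00048) and in G34V (0.17, SE 0.036, adjusted p = 0.0015) in edgeR's test.

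Several large subunit genes fell in set2Δ. The DEAD-box helicase gene dbp9 was at 120.4, 118 and 126 CPM in WT, at 113, 112 and 117 in G34R, at 119, 118 and 120.3 in G34V and at 94.3, 101 and 98.0 in set2Δ. The set2Δ libraries lay below the other 9. It fell by 19.5% in set2Δ (−0.31, SE 0.029, adjusted p = 1.3e-07 by edgeR's test) and was also lower in set2Δ than in G34R (G34R minus set2Δ 0.22, adjusted p = 6.5e-06) and than in G34V (G34V minus set2Δ 0.28, adjusted p = 6.5e-07). The gene rix1, whose product gives its name to a complex on late large subunit particles, was at 194 to 199 CPM in WT and 162 to 176 in set2Δ (−0.21, SE 0.029, adjusted p = 1.1e-05 by edgeR's test). The gene noc3 was at 265 to 267 CPM in WT and 239 to 241 in set2Δ (−0.15, SE 0.022, adjusted p = 1.9e-05 by edgeR), while in G34R and G34V it was at 0.03 and 0.03. The AAA-type ATPase gene rix7 was at 48.2 to 49.5 CPM in WT and 39.6 to 44.7 in set2Δ (−0.21, SE 0.039). The RNA-binding protein gene nop4 was the least reproducible member in each group, with 27.5 to 37.6 CPM in WT, 25.2 to 32.4 in G34R, 32.7 to 41.4 in G34V and 21.7 to 33.6 in set2Δ. Its coefficient of variation was 12.7 to 22.4%, each mutant's range overlapped that of WT, and it was called in none of the 3 comparisons with WT.

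Of the snoRNP core genes, nop56 and nop58 encode the paired scaffold proteins of box C/D particles, which guide methylation, and nop10 a protein of box H/ACA particles, which guide pseudouridylation. The gene nop56 had 815, 808 and 824 CPM in WT and 789, 759 and 767 in G34R, and nop58 725, 711 and 735 in WT and 688, 677 and 688 in G34R. In both genes all G34R libraries were below WT, by −0.08 (adjusted p = 0.040) and −0.08 (adjusted p = 0.024) on the log2 scale in edgeR's test. Neither was called in G34V or set2Δ. The gene nop10 was at 155, 159 and 159.8 CPM in WT, at 155, 156 and 159.8 in G34R, at 170.2, 169.5 and 176 in G34V and at 164, 176 and 168 in set2Δ. G34V and set2Δ lay above WT without overlap, by 0.12, SE 0.027 (adjusted p = 0.0018) and 0.10, SE 0.027 (adjusted p = 0.0041) in edgeR's test, while G34R overlapped WT (−0.01, adjusted p = 0.80).

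The exosome degrades and trims RNA from its 3′ end and has many substrates besides pre-rRNA. Of its 8 members here, 4 fell and 0 rose in G34R, 2 rose and 0 fell in G34V, and 4 rose and 2 fell in set2Δ. With 8 genes these counts can be set against the background only loosely. The most changed member in G34R was rrp41, which encodes a subunit of the exosome ring. It was at 40.7, 39.6 and 39.4 CPM in WT, at 32.1, 31.3 and 30.6 in G34R, at 41.5, 44.6 and 43.9 in G34V and at 45.0, 43.9 and 44.8 in set2Δ. All G34R libraries lay below those of the other groups, and G34V and set2Δ lay above WT. The transcript fell by 21.5% in G34R (−0.35, SE 0.030, adjusted p = 2.4e-07) and rose in G34V (0.12, SE 0.031, adjusted p = 0.0054) and in set2Δ (0.16, SE 0.030, adjusted p = 0.00023) in edgeR's quasi-likelihood test. The difference of G34R from G34V was −0.47, SE 0.031 (adjusted p = 1.7e-08 by edgeR). Other ring and cap subunits moved less: rrp43 was at −0.13, rrp4 at −0.11 and rrp45 at −0.10 in G34R, all called lower, and rrp40 was called higher in G34V and set2Δ (0.12 and 0.12). The gene of the nuclear exonuclease Rrp6 was at 91.8 to 98.7 CPM in WT, 93.1 to 96.1 in G34R, 96.3 to 97.4 in G34V and 87.5 to 97.5 in set2Δ. These ranges overlapped with WT in each mutant, and rrp6 was called in none of the 3.

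The DEAD-box helicases Dbp2 and Dbp5 act mainly outside ribosome assembly, Dbp5 in mRNA export. The gene dbp2 was at 335, 323 and 329 CPM in WT, at 310.4, 315 and 336 in G34R, at 361, 387 and 401 in G34V and at 386, 377 and 417 in set2Δ. All G34V and set2Δ libraries lay above those of WT and G34R, which overlapped. It rose in G34V (0.22, SE 0.044, adjusted p = 0.00082) and set2Δ (0.26, SE 0.044, adjusted p = 9.0e-05) by edgeR, the latter by 19.6%. The gene dbp5 fell in G34R (−0.09, SE 0.024, adjusted p = 0.0048 by edgeR's test). The rRNA processing gene rrp16, not sorted to a subunit here, rose in G34V (0.11) and was called in neither of the other mutants. With the exosome genes, dbp2 and dbp5 left out, the median of the remaining members was −0.07 in G34R, 0.09 in G34V and −0.13 between G34R and G34V.

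Over the 3 mutants, 2 members were called higher in each (dbp10 and nop2) and none lower in each, beside 11.2% and 8.12% of all tested genes. The most frequent pattern, in 12 members, was a fall in G34R and set2Δ with no call in G34V, as for utp4, rrp5, bms1 and rix1 (19.4% of members and 5.21% of all tested genes). Next came a rise in G34V and set2Δ with no call in G34R, in 10 members such as ebp2, rrp9 and dbp2 (16.1% and 5.21%). Calls of opposite sign in G34R and G34V were made for 4 members: nop16, rrp41, nop12 and utp18 (6.45% and 4.5%). In 6 members (dbp3, nog1, nop14, nop4, rrp6 and utp3) no mutant was called against WT (9.68% and 11.9%). The 3 comparisons share the WT libraries. By group mean, G34V was the highest of the 4 groups in 41 members and the lowest in 0, and G34R was the lowest in 34 and the highest in 0. Of all tested genes G34V was highest in 15.6% and lowest in 17.9%, and G34R lowest in 24.1% and highest in 23.3%.

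The mutants were also compared with set2Δ. In G34R 21 members were lower and 8 higher than in set2Δ, beside 35.4% and 34% of all tested genes, with a median of −0.03 (−0.06 without G34R replicate 3). In G34V 27 were higher and 2 lower than in set2Δ, beside 29.6% and 32.8% of all tested genes, with a median of 0.07. The 2 lower were utp7 and dbp5, and both calls were lost when single libraries were left out (adjusted p = 0.064 to 0.11 for utp7, without G34V replicate 1 or 2 or set2Δ replicate 2 or 3, and 0.051 to 0.19 for dbp5, without WT replicate 2 or 3, G34R replicate 2 or 3, G34V replicate 1 or 2, or set2Δ replicate 2 or 3, by edgeR's test). The members higher in G34R than in set2Δ included noc3 (0.18, SE 0.022), dbp9 (0.22, SE 0.029), utp25 (0.18, SE 0.037), rrp12 (0.15, SE 0.032) and rix7 (0.15, SE 0.039), and the largest difference in the other direction was that of rrp41 (−0.51, SE 0.031, adjusted p = 7.8e-10 by edgeR).

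A further 72 genes of the pathway whose names do not follow the rule, such as fib1 and gar1 (snoRNP proteins), imp3 and imp4 (U3 particle) and tif6 and nmd3 (late large subunit steps), were counted in the same way. In G34R 21 fell and 8 rose (median −0.05), in G34V 32 rose and 5 fell (median 0.06), and in set2Δ 19 rose and 18 fell (median 0.00). The 29.2% that fell in G34R were near the 26.6% of all tested genes and below the 32.7% of protein-coding genes, the 44.4% that rose in G34V were above the background of 25.1%, and the shares in set2Δ were below it. Between G34R and G34V 48, or 66.7%, were lower in G34R and 2 higher (median −0.11), and 66 of the 72 had a lower fitted level in G34R. In G34R the lowest adjusted p belonged to rli1 (192 ± 8.51 CPM in WT and 161 ± 3.34 in G34R; −0.25, SE 0.033), an ATPase gene of ribosome recycling and export, rio1 (−0.22, SE 0.029), a kinase gene of late small subunit steps, and fap7 (−0.23, SE 0.033), an ATPase gene of the last small subunit cleavage in budding yeast. In G34V it belonged to rpf2 (141 ± 4.59 CPM in WT and 167 ± 7.30 in G34V; 0.24, SE 0.032), which brings the 5S RNA into the large subunit in budding yeast, esf2 (0.16, SE 0.023) and enp1 (0.24, SE 0.039), both of small subunit steps. In set2Δ it belonged to esf2 (0.23, SE 0.023), rcl1 (−0.26, SE 0.028) and slx9 (−0.21, SE 0.025).

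The cytosolic ribosomal protein genes, the cargo of this pathway, were mostly lower in G34R. Of 129 rows with rpl or rps names, 95 fell and 1 rose in G34R (median −0.15), 9 rose and 4 fell in G34V (median −0.03), and 5 rose and 45 fell in set2Δ (median −0.07). The 73.6% that fell in G34R were above the 26.6% of all tested genes and the 32.7% of protein-coding genes. Relative to the WT mean, the library medians of this list were 0.03, −0.03 and 0.00 in WT and −0.08, −0.18 and −0.18 in G34R. They were −0.07, 0.01 and 0.00 in G34V and −0.15, −0.09 and 0.01 in set2Δ. Calls in this list were not counted under the other scalings or with libraries left out. In set2Δ the 34.9% that fell were near the 35.6% of all tested genes and below the 41.8% of protein-coding genes. The 3.88% that rose in set2Δ were below the background of 34.5%. In G34V 6.98% rose and 3.1% fell, both below the background of 25.1% and 25%. Between G34R and G34V 72, or 55.8%, were lower in G34R and 0 higher, beside 25.3% and 25.2% of all tested genes. Many ribosomal proteins are encoded by near-identical gene pairs, so single values are uncertain, and only counts are given. The difference between these genes and the assembly factors was not tested.

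Stress and mating-type markers were read beside the members. Of 19 genes of the core stress response 8 rose and 3 fell in G34R, 2 rose and 6 fell in G34V and 3 rose and 6 fell in set2Δ. The 42.1% that rose in G34R were above the 26.8% of all tested genes, the 31.6% that fell in G34V were near the 25%, and in set2Δ the 15.8% that rose and 31.6% that fell were below the background. Their summed level was 5369 to 5574 CPM in WT, 5928 to 6446 in G34R, 4677 to 5523 in G34V and 5299 to 5780.0 in set2Δ. The higher sum in G34R came mostly from hsp16 and gpd1. On average hsp16 went from 123 to 445 CPM (1.86, SE 0.039, adjusted p = 7.7e-14 by edgeR's test). That of gpd1 went from 886 to 1102.5 CPM (0.31, SE 0.061). The 3 that fell in G34R were gst2 (−0.90), sod1 (−0.18) and trx2 (−0.15). Of 5 M-cell markers 5 rose in G34R, 5 rose in G34V, and 3 rose and 1 fell in set2Δ, with a summed level of 339.8 to 383 CPM in WT, 505 to 541 in G34R, 483 to 500.3 in G34V and 399 to 399.8 in set2Δ. Of 4 P-cell markers 3 rose in G34R, 3 rose in G34V, and 2 rose and 1 fell in set2Δ, with 89.2 to 93.0 CPM in WT, 99.3 to 103 in G34R, 97.2 to 103 in G34V and 113 to 119 in set2Δ. Of all tested genes 26.8%, 25.1% and 34.5% rose in G34R, G34V and set2Δ, and 26.6%, 25% and 35.6% fell. With 4 or 5 genes the marker counts can be set against these shares only loosely. None of the markers of either type was at 0. The part of these genes in the member values was not tested.

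The files also count antisense RNAs named after their sense gene, and 5 members have one: ebp2, nop12, utp4, utp5 and utp23. All 5 antisense RNAs rose in G34R, 4 rose and 1 fell in G34V, and 4 rose and 1 fell in set2Δ, beside 72%, 61.4% and 77.6% of 617 tested antisense RNAs called higher and 4.7%, 6.65% and 8.75% called lower. The antisense RNA of utp4 was at 2.24, 2.12 and 2.03 CPM in WT, at 3.86, 4.21 and 3.99 in G34R, at 2.63, 3.39 and 3.21 in G34V and at 5.95, 5.94 and 6.09 in set2Δ. The groups did not overlap and rose from WT through G34V and G34R to set2Δ (0.51, SE 0.087; 0.92, SE 0.079; 1.5, SE 0.079), while the sense transcript was lower in G34R and set2Δ. The antisense RNA of utp23 was at 14.5, 14.3 and 15.1 CPM in WT, at 20.0, 18.8 and 19.5 in G34R, at 16.1, 16.2 and 17.7 in G34V and at 15.8, 16.4 and 17.3 in set2Δ. The G34R libraries, in which the sense transcript was lowest, were the highest here (0.41, SE 0.043, adjusted p = 2.0e-06 by edgeR).

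Over the 3 mutants the 5 pairs kept no single relation. The antisense RNA of utp4 rose in G34V (0.51), where the sense transcript was at 0.00. That of utp23 was also called higher in G34V (0.18, SE 0.045, adjusted p = 0.0038) and set2Δ (0.18, SE 0.045, adjusted p = 0.0022) by edgeR. Its sense transcript was called in neither (−0.02 and −0.04). The antisense RNA of ebp2 rose in G34R (0.48, SE 0.082) and set2Δ (0.72, SE 0.084) and fell in G34V (−0.29, SE 0.096), while the sense transcript rose in both G34V and set2Δ and was at 0.05 in G34R. That of utp5 was at 32.8 to 34.7 CPM in WT, 38.4 to 39.1 in G34R and 37.1 to 39.4 in G34V, and rose with its sense gene in both (0.19, SE 0.034 and 0.18, SE 0.035). That of nop12 rose in all 3 mutants (0.69, SE 0.077 in G34R, 0.41, SE 0.083 in G34V and 0.72, SE 0.079 in set2Δ), while the sense transcript fell in G34R and rose in G34V. The kit marks strand, per the labels' protocols, and a check of the counts bears on whether strand was used. Of 26 noncoding genes that lie wholly inside an exon of a protein-coding gene on the other strand, 19 had over 3 counts in every library, where counting without strand would have left their reads ambiguous.

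**Figure D5:**
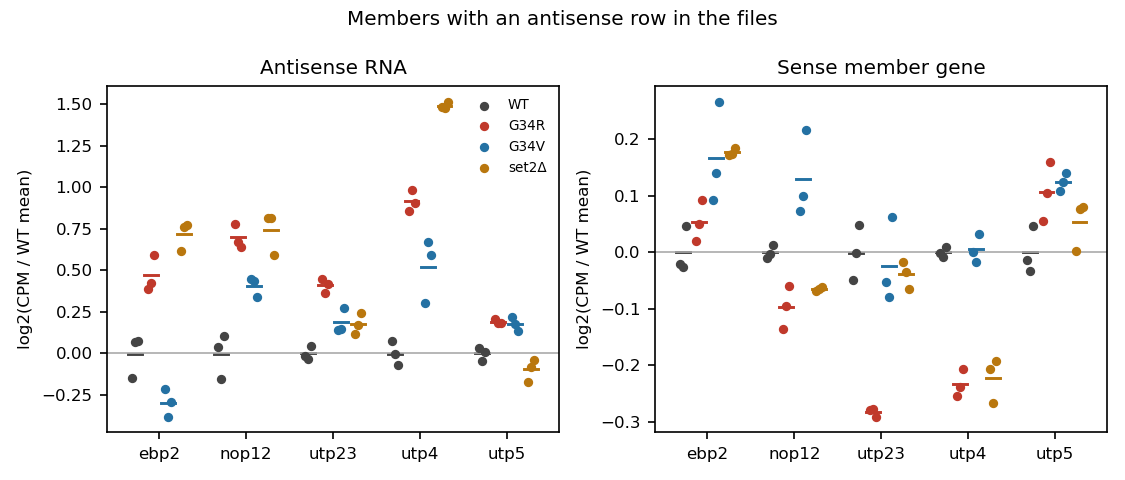
Log2(CPM divided by the WT mean) of the 5 antisense RNAs (left) and of the member genes they are named after (right), 1 point per library, with bars at group means; the vertical axes differ. For utp4 the antisense values are highest in set2Δ and G34R, where the sense values are lowest, and for utp5 both rise in G34R and G34V.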

How the data were processed

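The authors deposited 1 file of raw counts per gene for each of 12 libraries. Per the labels' protocols, total RNA was depleted of rRNA and made into strand-marking libraries. The submitters' processing notes name CASAVA 1.7, cutadapt, STAR, SAMtools, HTSeq and the build ASM294v2; the sources used here do not give the counting settings. Groups came from the genotype labels. Lines that name no gene stayed out of library sizes (no feature 1.99 to 3.30% of all counts). Total counts in genes were 65797517 to 228726069 per library, so that 3 counts, the limit used in the strand check, came to 0.0131 to 0.0456 CPM. Counting error is thus small, and reads without molecular identifiers are not independent molecules.

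From these counts, filterByExpr kept 6602 of 7013 genes. TMM factors (0.972 to 1.04) and edgeR 4.0.16 (R 4.3.3) gave 1 quasi-likelihood fit of 4 groups without covariates (8 residual degrees of freedom; common coefficient of variation 3.32%), with Benjamini-Hochberg adjustment over all tested genes and calls at 0.05. As a check of the code, the procedure was run on simulated data with 200 changed genes and the same spread for all genes. That run does not bear on genes of wider spread, such as nop4. DESeq2 1.42.0, limma voom 3.58.1, other scalings and filters and leaving out each library were alternatives. An annotation of another build (ASM294v3) was used for gene class, coding length, products and the strand check only, by name. Sequences and promoter motifs are not analysed here.

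The members, lists and tests were chosen with earlier results of these data known. Members given singly by rule were the 5 with the lowest adjusted p in each mutant against WT and in G34R against G34V. The rule also took those highest and lowest per coding length, those called in opposite directions in 2 mutants, and up to 5 called against the member median. Not all of these are given with both levels and adjusted p. Of the other pathway genes, the 3 with the lowest adjusted p in each mutant against WT are given. Single stress genes, and others named in passing, were chosen after their values were seen.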

Additional observations from a re-analysis of the deposited data

How the results depend on the processing

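Of 18 counts and medians under 23 alternatives, 379 values stayed close to those given and 29 moved, 19 of them on leaving out a library. A count was taken as close within 1.5 times, and a median when it differed by less than 0.031 on the log2 scale. That limit is wide beside the medians themselves. The G34R median against WT passed as close to −0.066 at −0.036, both without G34R replicate 1 and with protein-coding genes alone. With protein-coding genes alone 8 members were higher and 12 lower in G34R than in WT, and at an adjusted p of 0.01 the counts were 2 and 13. The set2Δ median was 0.043 with upper quartile scaling and 0.035 with protein-coding genes alone. The count lower in G34V than in set2Δ was 1 with RLE scaling, 1 with a fit of the 2 groups alone, 1 without the exosome genes, dbp2 and dbp5, and 0 at an adjusted p of 0.01.

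Leaving out each library in turn, the members lower in G34R than in WT ranged from 15 to 26 and those higher from 2 to 5. In G34V against WT 20 to 29 were higher and 0 to 1 lower, and in set2Δ 13 to 21 were higher and 12 to 17 lower. In G34R against G34V 33 to 46 were lower, with a median of −0.13 to −0.10. The other medians were −0.08 to −0.04 in G34R, 0.06 to 0.10 in G34V and −0.01 to 0.03 in set2Δ against WT, and −0.06 to −0.03 in G34R and 0.06 to 0.09 in G34V against set2Δ. In G34V against set2Δ 0 to 4 were lower, with 4 without G34V replicate 3 or set2Δ replicate 1. The sign reversed for nop10 in G34R (0.0056 with upper quartile scaling, 0.021 with protein-coding genes alone, and −0.022 to 0.0015 over the fits without 1 library, the last without G34R replicate 1) and for utp13 in G34V (−0.12 to 0.035 over those fits, above 0 without WT replicate 1 or G34V replicate 1), none of them called. Of 55 values of named genes 43 kept direction and call under every alternative run. The causes were not tested. No paired analysis was possible because no label numbers the replicates or links libraries across groups; the numbers used here follow listing order. The promoter motifs were not run.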
